A study of Mus musculus with 16 samples.

Results

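The 8 genes described here encode the core of the cytosolic heat shock response: Hspa1a, Hspa1b, Hspa8, Hsph1, Dnajb1, Hsp90aa1, Hspb1 and Hsf1. They were taken as the array probes whose gene name in the scanner output equals a member, which gave 15 of 56605 probes and 8 of 37074 gene names. All 8 genes had a probe well above background on all 16 arrays, and 14 of their 15 probes passed the filter on dim probes. RNA came from the liver of male C57BL/6 wild-type mice with a conventional gut flora (Conv), which were 6 weeks old at the start, ate normal chow (NC) for 4 weeks and were 10 weeks old when sampled. The mice lived on an inverted light cycle with lights off in the morning and were killed after a 6-hour fast. The 6 Conv + PBS mice received reduced PBS as vehicle, and their labels call them not transplanted. The 5 Conv + LM mice received caecal microbiota of lean mice, and the 5 Conv + OM(HFD) mice received caecal microbiota of mice made obese with a high-fat diet. Vehicle and microbiota were given by weekly gavage, recipients had never received antibiotics, and each array held the RNA of 1 mouse. Each inoculum was pooled from several donors, and mice were housed 5 or 6 to a cage. The cage of each mouse is not given, so the inoculum pool, and possibly the cage, cannot be told apart from the condition. The questions were whether the heat shock genes varied together from mouse to mouse, whether they followed the clock gene Arntl, and whether their levels differed between these 3 conditions.

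Heat shock proteins are molecular chaperones, which hold unfolded proteins in solution and help them to fold or to be degraded. When unfolded protein accumulates, as in heat, the transcription factor HSF1 is released from the chaperones that hold it inactive, forms trimers and switches on the chaperone genes at inverted repeats of the letters GAA, the heat shock elements. In the liver of mice these genes also follow a daily rhythm, since body temperature, feeding and the clock itself act on them, and clock genes such as Arntl and Dbp peak at opposite times of the day. Cirbp encodes a cold-inducible RNA-binding protein whose transcript is known to be high when body temperature is low.

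Levels below are log2 of the background-corrected Cy3 intensity of the probe minus the 75th percentile of its array, so 0 is the 75th percentile of the probes of that array and a difference of 1 is a doubling. The probes differ in sequence, so levels were compared between mice and not between genes. The 75th percentile of intensity was 153 to 220 over the 16 arrays, 49.7% to 58.3% of probes were well above background, and 0 probes were saturated. Of the 2 slides, slide 1 carried 3 mice given vehicle, 2 given lean microbiota and 3 given HFD microbiota, and slide 2 carried the other 3, 3 and 2. The summed level of 5 hepatocyte markers was 11.5 to 11.9 in all mice. Conv + PBS mouse 1 and Conv + OM(HFD) mouse 25 stood apart in neutrophil and Kupffer cell markers. The summed level of the 4 measured neutrophil markers of a list of 6 was 4.94 and 4.85 in these mice, against -0.61 to 0.64 in the other 14. The defining markers Ltf and Retnlg did not pass the filter on dim probes, but both were well above background in these mice, Ltf on these 2 arrays and Retnlg on 3. The summed level of 5 Kupffer cell markers was 7.56 and 6.39 in the same mice, against 4.69 to 5.58 in the others. Both mice were also low in the heat shock genes. Their part in the results was not tested, and values without both mice are given beside the pair correlations, the slopes and correlations with Arntl, the slopes on Hsph1 and the group differences. In bulk liver RNA, fewer cells of a type and less RNA per cell cannot be told apart.

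Among the HSP70 chaperones, Hspa1a and Hspa1b are the stress-inducible pair, adjacent genes of nearly the same sequence. The Hspa1a level was 0.12 at the lowest, 1.35 at the median and 1.66 at the highest in Conv + PBS mice. It was -1.13, 0.06, 0.71, 0.12 and 0.91 in Conv + LM mice 13 to 17. It was -1.17 in Conv + OM(HFD) mouse 25 and 0.84, 0.64, 1.68 and 0.68 in mice 26, 28, 29 and 30. Mice 13 and 25 were the lowest by far, the groups overlapped, and the highest mouse was 7.23-fold above the lowest. The Hspa1b level was 1.22, 2.95 and 3.02 at the lowest, median and highest in Conv + PBS mice, 0.90, 1.64, 2.33, 1.42 and 2.32 in Conv + LM mice 13 to 17, and 0.73, 2.08, 2.09, 2.89 and 1.90 in Conv + OM(HFD) mice 25, 26, 28, 29 and 30. Mice 25, 13 and 1 were the lowest, all groups overlapped, and the range was 4.89-fold. Because the probes of Hspa1a and Hspa1b may each bind both transcripts, the pair may amount to 1 measurement. Hspa8, the constitutive HSP70 that folds newly made protein and uncoats vesicles, varied less, from 6.56 to 7.44 or 1.84-fold over all mice.

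The co-chaperones of HSP70 varied in the same mice. Hsph1 encodes HSP110, which exchanges the nucleotide of HSP70 and helps it to dissolve aggregates. The Hsph1 level was 3.33, 4.50 and 4.87 at the lowest, median and highest in Conv + PBS mice, 3.01, 3.87, 3.94, 3.58 and 4.37 in Conv + LM mice 13 to 17, and 3.31, 3.74, 3.90, 4.52 and 4.16 in Conv + OM(HFD) mice 25, 26, 28, 29 and 30. Mice 1, 13 and 25 were the lowest of their groups, the groups overlapped, and the range was 3.62-fold. Dnajb1 encodes an HSP40, which brings unfolded protein to HSP70 and starts its ATPase. The Dnajb1 level was 4.27, 5.01 and 5.17 at the lowest, median and highest in Conv + PBS mice, 4.03, 4.58, 4.81, 4.43 and 4.99 in Conv + LM mice 13 to 17, and 3.99, 4.65, 4.55, 5.05 and 4.62 in Conv + OM(HFD) mice 25, 26, 28, 29 and 30. Mice 1, 13 and 25 were again the lowest of their groups, and the groups overlapped over a 2.27-fold range.

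The other members were the inducible HSP90 gene Hsp90aa1, whose protein matures kinases and steroid receptors, the small heat shock protein gene Hspb1, whose protein holds unfolded chains until HSP70 takes them over, and Hsf1 itself. Hsp90aa1 ran from 5.08 to 6.24 (2.23-fold) and Hspb1 from 3.41 to 5.38 (3.93-fold). Hsf1 ran only from 1.80 to 2.18 (1.30-fold). The plot of members by group shows the value of each mouse.

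**Figure D1:**
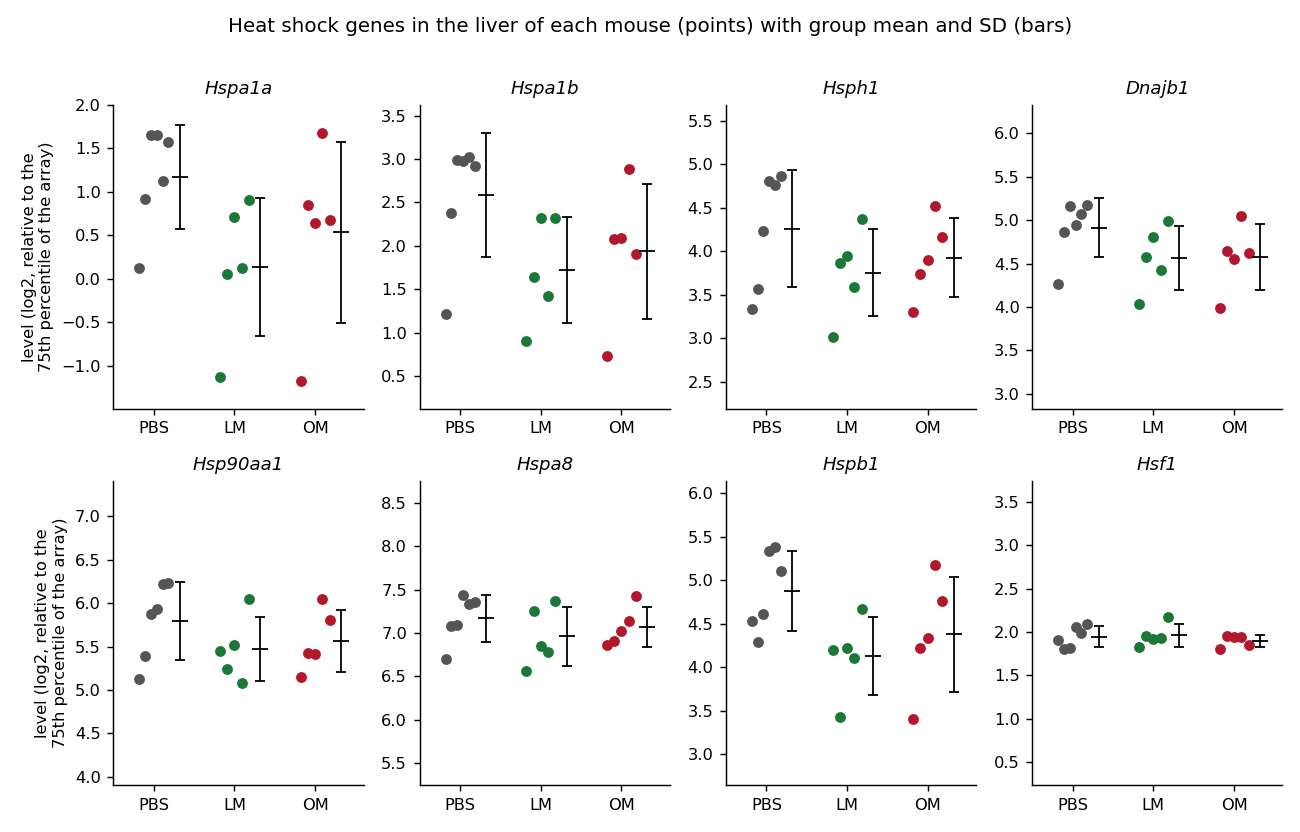
Level of each of the 8 heat shock genes (vertical axes, log2 relative to the 75th percentile of the array, all of the same span) in the Conv + PBS (PBS), Conv + LM (LM) and Conv + OM(HFD) (OM) mice, with points for single mice and bars for the group mean and SD. All groups overlap for all 8 genes, and Conv + OM(HFD) mouse 25 is the lowest of its group in all 8.

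The spread between mice of the same group was wide for the inducible genes and narrow for Hsf1. The SD within groups was 0.82 for Hspa1a, 0.70 for Hspa1b, 0.56 for Hsph1 and 0.53 for Hspb1 on the log2 scale. The median over the 20404 genes tested was 0.24. Hspa1a had a wider SD than 95.9% of genes, Hspa1b than 93.4%, Hsph1 than 88.1% and Hspb1 than 86.4%. Hsp90aa1 was above 76.4% of genes, Dnajb1 above 72.3%, Hspa8 above 59.4% and Hsf1 above 5.72%. The same mice lay at the ends of the range for most members. Conv + PBS mouse 1 was the lowest of its group for 6 of the 8 genes, Conv + LM mouse 13 for 6 and Conv + OM(HFD) mouse 25 for 8. At the other end, Conv + LM mouse 17 was the highest of its group for 7 genes, Conv + OM(HFD) mouse 29 for 6 and Conv + PBS mouse 6 for 4.

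The heat shock genes rose and fell together across mice. On deviations from group means, all 28 pairs of members correlated positively over the 16 mice, with Pearson's r from 0.461 to 0.971 and a median of 0.697. In a two-sided permutation test within groups, 27 of 28 pairs had an unadjusted p under 0.05 by Pearson's r and 21 by Spearman's rho, which ran from 0.479 to 0.915. With the 2 mice farthest from the median left out of each pair, r ran from 0.326 to 0.941 and remained positive in all 28. These are among 76 relations computed. Covariation with a member was common among genes at large, since 21.2% of all genes had an unadjusted p under 0.05 in the limma slope on Hsph1. The closest pair was the HSP70 gene Hspa1b and its partner Dnajb1, with r = 0.971 (rho 0.915, permutation p = 1e-05, the smallest that these permutations can give, and r = 0.941 without the 2 farthest mice). Hspa1a followed Dnajb1 with r = 0.949 and Hspa1b with r = 0.944. The loosest pair was Hspa8 and Hspb1, with r = 0.461 (rho 0.524, permutation p = 0.0804). The 7 pairs with Hsf1 had r from 0.530 to 0.742, although its range was narrow. The first principal component of the 8 standardised genes held 75.8% of their variance and the second 8.92%. The plot of correlations between pairs gives each r.

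**Figure D2:**
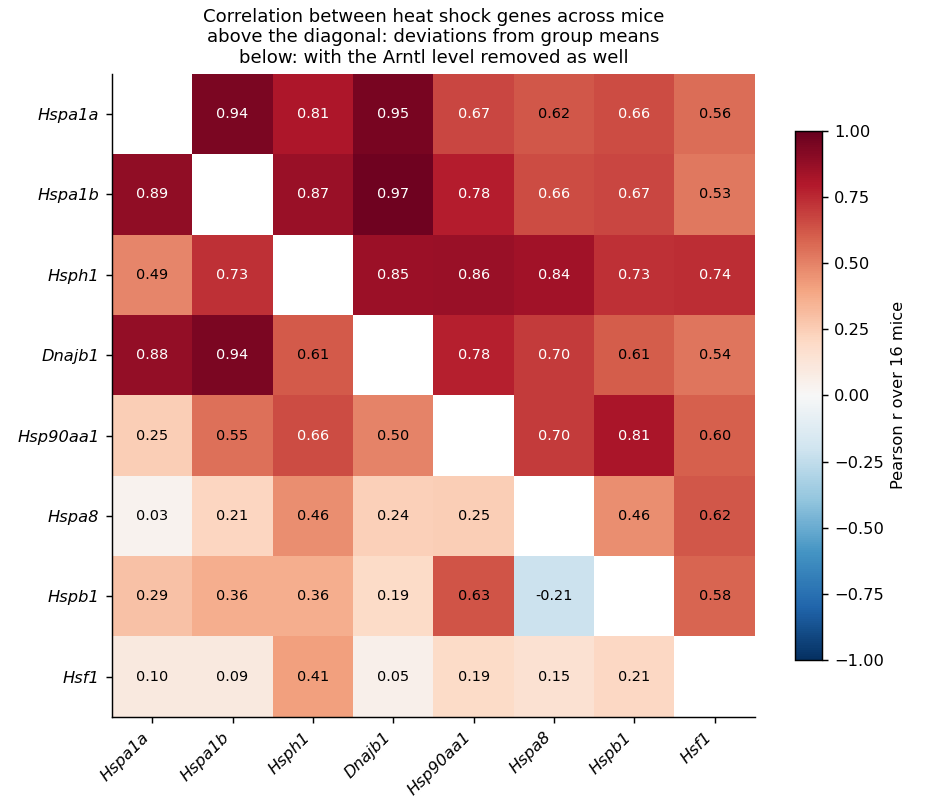
Pearson's r between each pair of the 8 heat shock genes (both axes) across the 16 mice, as colour and printed number, on deviations from group means above the diagonal and with the Arntl level removed as well below it. All values above the diagonal exceed 0, and Hspa1a, Hspa1b and Dnajb1 hold the highest in both parts, 0.94 to 0.97 above and 0.88 to 0.94 below.

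Without mice 1 and 25, all pairs remained positive, with r from 0.343 to 0.937 and a median of 0.615, and 16 of 28 pairs had a permutation p under 0.05, where 17.9% of all genes had an unadjusted p under 0.05 in the limma slope on Hsph1. With all mice and the slide as a further term, 24 pairs did. In all 16 mice, with the Arntl level removed besides the group means, 27 of 28 pairs were positive, the median fell from 0.697 to 0.326, and 10 pairs had a permutation p under 0.05. Hspa1a, Hspa1b and Dnajb1 remained close to each other, with r from 0.883 to 0.942. Hsph1 remained correlated with Hspa1b (r = 0.730) and with Hsp90aa1 (r = 0.656). Hspa8 had r = 0.0337 with Hspa1a once Arntl was removed, against 0.619 before.

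Hsph1 was taken as an index of the response in a limma fit over all genes with the groups as terms, in which the slope is the change in log2 level of a gene for each 1 unit of Hsph1 on the log2 scale. Over all genes, 1222 of 20403 passed an adjusted p under 0.05 (5.99%), and 3.15% passed with a higher level at high Hsph1. Of the 7 other members, 6 passed, all higher. The slope was 1.18 (SE 0.23, adjusted p = 0.0099) for Hspa1a and 1.09 (SE 0.17, adjusted p = 0.00397) for Hspa1b, so the inducible HSP70 genes changed by about as much as Hsph1. The slope was 0.68 for Hspb1, 0.61 for Hsp90aa1, 0.55 for Dnajb1 and 0.42 for the constitutive Hspa8, with adjusted p from 0.00555 to 0.0342. Hsf1 had a slope of 0.15 (SE 0.05, adjusted p = 0.119). Without mice 1 and 25, 3 of the 7 passed (Hspa1b 0.77, Hspa1a 0.91 and Hsp90aa1 0.55) against 3.4% of genes, and all 7 slopes remained above 0. Within slides, all slopes were above 0 on each slide, 0.13 to 1.05 on slide 1 and 0.13 to 1.13 on slide 2, and 0 passed, as 0 and 1 of all genes did. With Arntl as a covariate, 0 members and 0 of 20403 genes passed. Unadjusted p was then under 0.05 for Hspa1b (slope 1.34), Hsp90aa1 (0.64) and Dnajb1 (0.53), against 4.88% of all genes.

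Other probes of the same genes tracked the ones used. Both other Hsph1 probes correlated with the one used at r = 0.980 and 0.763, although the latter was well above background on only 9 arrays. For Hsp90aa1 the second probe gave r = 0.904, and the third was well above background on 1 array and was left out. The 3 other Hspa8 probes gave r from 0.911 to 0.952. The array design places the probe used for Hspa1a at chr17:35106766-35106825 and that for Hspa1b at chr17:35093374-35093405 on mm9. The probes used for the others lie at chr5:150419744-150419803 (Hsph1), chr8:86135660-86135719 (Dnajb1), chr12:111932511-111932796 (Hsp90aa1), chr9:40612755-40613050 (Hspa8), chr5:136365366-136365425 (Hspb1) and chr15:76331176-76331235 (Hsf1). Probes are 60 bases long, the spans that the design gives for Hspa1b, Hsp90aa1 and Hspa8 differ from that length, and the exons under these positions were not analysed here.

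Since the inducible genes moved together, the promoter sequences of the members are shown. RefSeq windows on GRCm38.p6 were at hand for 5 of the 8 genes (Hspa1a, Hspa1b, Hsph1, Dnajb1 and Hspb1), each with 250 bases before the transcription start and 50 after it. The 250 bases before the start are printed 5′ to 3′ on the strand of the gene for the members with a match, and the capitals mark the core of the heat shock element in 2 units, GAANNTTC or TTCNNGAA. The windows are chr17:34972157-34972406 (minus strand) for Hspa1a, chr17:34959239-34959488 (minus) for Hspa1b, chr5:149636337-149636586 (minus) for Hsph1 and chr5:135887669-135887918 (plus) for Hspb1.
Hspa1a: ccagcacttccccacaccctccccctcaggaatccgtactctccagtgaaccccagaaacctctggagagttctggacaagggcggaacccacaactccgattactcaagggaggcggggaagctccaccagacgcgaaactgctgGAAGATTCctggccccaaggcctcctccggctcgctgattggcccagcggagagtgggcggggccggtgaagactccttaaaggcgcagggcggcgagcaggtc
Hspa1b: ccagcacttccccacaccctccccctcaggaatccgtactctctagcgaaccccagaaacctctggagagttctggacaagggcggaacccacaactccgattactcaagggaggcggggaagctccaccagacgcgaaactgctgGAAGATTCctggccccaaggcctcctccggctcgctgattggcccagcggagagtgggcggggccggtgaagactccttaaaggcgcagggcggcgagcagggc
Hsph1: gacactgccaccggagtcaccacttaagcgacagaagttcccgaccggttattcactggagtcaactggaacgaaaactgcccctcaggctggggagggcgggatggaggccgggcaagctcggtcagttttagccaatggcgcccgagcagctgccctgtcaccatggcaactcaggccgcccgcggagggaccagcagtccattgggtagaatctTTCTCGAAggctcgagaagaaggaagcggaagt
Hspb1: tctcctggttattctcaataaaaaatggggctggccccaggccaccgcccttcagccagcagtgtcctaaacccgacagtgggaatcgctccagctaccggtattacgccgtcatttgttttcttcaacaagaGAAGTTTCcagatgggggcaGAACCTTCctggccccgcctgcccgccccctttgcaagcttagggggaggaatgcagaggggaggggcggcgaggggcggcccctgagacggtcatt

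The promoters of Hspa1a and Hspa1b matched at 247 of 250 bases (98.8%), and both held GAAGATTC at 104 bases before the start. The Hspb1 promoter held GAAGTTTC and GAACCTTC at 117 and 97 bases before the start. The Hsph1 promoter held TTCTCGAA at 33 bases before the start. After the start, Hsph1 also held the element in 3 units, TTCTGGAAAGTTC, at base 37, and the E-box CACGTG, the letters that ARNTL and CLOCK bind, at base 3, counted from the more upstream of the starts given for the gene. The Dnajb1 windows held none of these letters. Over all 32851 promoter windows and on both strands, 15.1% held the core in 2 units, 0.603% held the element in 3 units (the core followed by another inverted unit at the same spacing, so every such element also counts as a core) and 7.15% held CACGTG. These matches describe letters and not binding.

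Arntl (Bmal1) encodes the activator of the circadian clock that pairs with CLOCK. The mice were fasted and kept on an inverted light cycle, but the sources used here do not give the hour at which they were killed. The Arntl level was -2.33 at the lowest, -1.01 at the median and 0.20 at the highest in Conv + PBS mice. It was -2.73, -1.26, -0.63, -0.89 and 0.32 in Conv + LM mice 13 to 17, and -2.28, -1.16, -1.10, -0.55 and 0.74 in Conv + OM(HFD) mice 25, 26, 28, 29 and 30. Each group held mice low and high in Arntl, over an 11.1-fold range in all. Conv + LM mouse 13 and Conv + OM(HFD) mouse 25 were the lowest of their groups in Arntl as in Hspa1a and Hspa1b, while in Conv + PBS mice mouse 2 was at -2.33 and mouse 1 at -2.23. Dbp, an output gene that peaks opposite to Arntl, spanned 5.70-fold and the cold-inducible Cirbp 3.39-fold. Within each group Dbp fell with the mouse number. It went from 6.73 to 4.79 in Conv + PBS, 6.58 to 4.57 in Conv + LM and 6.57 to 4.22 in Conv + OM(HFD) mice. Arntl rose almost in that order. The sources used here do not say whether the numbers follow the order of sampling. The part of this order in the slopes and correlations was not tested. Deviations of Arntl from the group means spread from -1.69 to 1.61. They fell into a low bunch from -1.69 to -1.07, a middle one from -0.29 to 0.57 and a high one from 1.35 to 1.61. The largest gap, 0.78, lay between bunches, and relations within a bunch were not computed.

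Heat shock transcripts were higher in mice with more Arntl. In the limma fit of each gene on Arntl with the groups as terms, 1682 of 20403 genes passed an adjusted p under 0.05 (8.24%) and 4.41% passed with a higher level at high Arntl. Of the 8 members, 7 passed, all higher. Hsph1 rose by 0.46 on the log2 scale for each 1 unit of Arntl (SE 0.07, adjusted p = 0.00237). The inducible HSP70 genes had steep slopes, 0.58 (SE 0.14, adjusted p = 0.0184) for Hspa1a and 0.47 (SE 0.13, adjusted p = 0.0363) for Hspa1b. Hspa8 had a slope of 0.21 (SE 0.05, adjusted p = 0.0126), Dnajb1 of 0.26 (SE 0.06, adjusted p = 0.0229) and Hsp90aa1 of 0.28 (SE 0.07, adjusted p = 0.025). Hspb1 had a slope of 0.34 (SE 0.10, adjusted p = 0.0459). Hsf1 did not pass, with a slope of 0.07 (SE 0.03, adjusted p = 0.145). The members' median slope was 0.31. The plot of heat shock genes against Arntl shows each mouse.

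**Figure D3:**
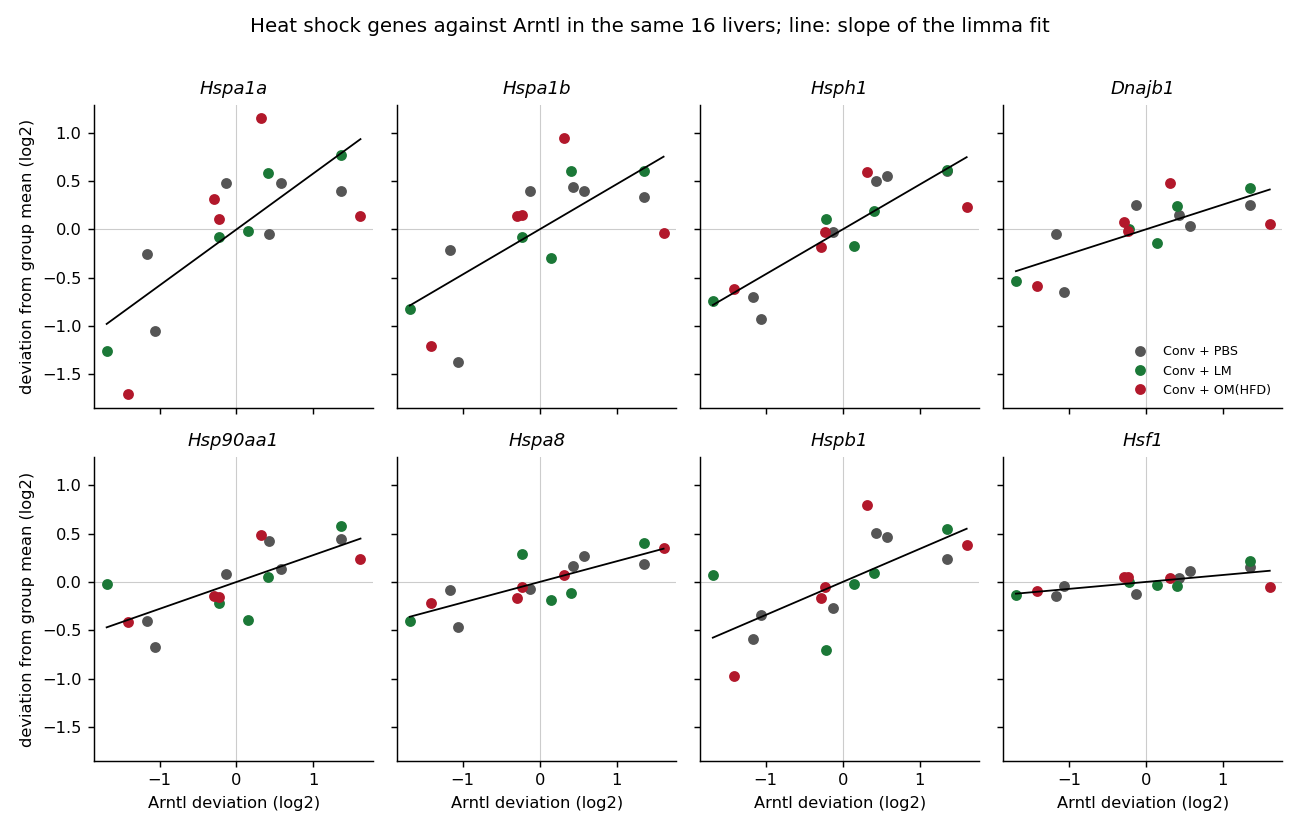
Deviation of each heat shock gene from its group mean (vertical axis, log2) against the deviation of Arntl (horizontal axis, log2) in the 16 mice, coloured by group, with the slope of the limma fit as a line. The lines rise in every panel, with slopes from 0.07 (Hsf1) to 0.58 (Hspa1a).

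The correlation with Arntl across the 16 mice was 0.875 for Hsph1 (rho 0.885, permutation p = 0.00011, and 0.910 without the 2 farthest mice). It was 0.806 for Hspa8 (rho 0.779, permutation p = 0.00049, and 0.720 without the 2 farthest mice). Over the 8 members r ran from 0.683 to 0.875 and rho from 0.553 to 0.885, all 8 with a permutation p under 0.05, and r ran from 0.720 to 0.910 without the 2 farthest mice. For comparison, 23.7% of all genes had an unadjusted p under 0.05 in the limma slope on Arntl. With mice 1 and 25 left out, r ran from 0.571 to 0.851 with a median of 0.657, and 6 of 8 members had a permutation p under 0.05, where 18.2% of all genes passed that unadjusted threshold in the limma slope. The relation had the opposite sign for Dbp, with r from -0.872 to -0.661 over the members, and for Cirbp, with r from -0.892 to -0.605, again with all 8 permutation p under 0.05. In the limma slope on Dbp 23.1% of all genes had an unadjusted p under 0.05, and no such share was computed for Cirbp. Per2, which also responds to signals other than the clock, gave r from -0.459 to 0.066 with 0 of 8 members under 0.05, and from -0.410 to 0.024 without the 2 farthest mice. Rbm3, a cold-inducible gene like Cirbp, gave r from -0.527 to 0.371 with 1 of 8 under 0.05, and from -0.255 to 0.370 without the 2 farthest mice. Nr1d1, which encodes the repressor of Arntl, gave r from -0.485 to 0.008 with 1 of 8 under 0.05, and from -0.752 to -0.216 without the 2 farthest mice, so its relation depended on these. By rank it ran from -0.638 to 0.035, with a permutation p under 0.05 for Dnajb1 (0.016) and Hsp90aa1 (0.0385). As slopes on Dbp in place of Arntl, 7 of 8 members passed over all genes (8% of genes), all lower at high Dbp, and on Per2 or Nr1d1 0 passed (0% of genes). Of all genes, 7.25% had an unadjusted p under 0.05 in the limma slope on Per2 and 6.68% in that on Nr1d1. This share was not computed for Rbm3.

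The slope on Arntl was above 0 in each group for all 8 genes. For Hsph1 it was 0.65 in Conv + PBS, 0.43 in Conv + LM and 0.31 in Conv + OM(HFD) mice, and for Hspa1a 0.44, 0.70 and 0.60. The differences between these slopes did not pass the limma interaction test, with unadjusted p from 0.146 to 0.971 over the members. In that test 0 of all genes passed, and 627 had an unadjusted p under 0.05. The number of members called depended on the mice included. Without mice 1 and 25, 1 member passed (Hsph1, slope 0.42, adjusted p = 0.0177, against 3.21% of all genes), and the slopes of all 8 ran from 0.08 to 0.42 with 7 at an unadjusted p under 0.05, against 18.2% of all genes. Leaving out single mice gave 2 members without Conv + OM(HFD) mouse 25 (4.33% of all genes), 3 without Conv + LM mouse 17 (5.54%), 4 without Conv + LM mouse 13 (5.54%) and 4 without Conv + PBS mouse 6 (5.43%). Without any of the others 5 to 7 passed, against 5.38% to 8.35% of genes. With the slide as a term, 3 members passed, against 5.67% of genes. Within slides, slopes ran from 0.04 to 0.53 on slide 1 and from 0.10 to 0.74 on slide 2, all above 0. On each slide 0 members and 0% of all genes passed, and 6 and 7 members had an unadjusted p under 0.05, against 12.7% and 14% of genes.

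No difference of a member between the 3 conditions passed an adjusted p under 0.05. In Conv + LM vs. Conv + PBS mice, 7 of 8 members had a lower mean, all except Hsf1 (0.02), where 53.1% of all genes did. The difference was -1.04 for Hspa1a (SE 0.46, 51.4% lower), -0.86 for Hspa1b (SE 0.40, 45% lower) and -0.75 for Hspb1 (SE 0.30, 40.6% lower). It was -0.51 for Hsph1, -0.35 for Dnajb1, -0.33 for Hsp90aa1 and -0.21 for Hspa8. Adjusted p was 0.998 for all 8 in limma, and 0 of 20404 genes (0%) passed in this comparison, in limma as in the methods' t-test. At an unadjusted p under 0.05, Hspa1a (0.038), Hspa1b (0.0451) and Hspb1 (0.0231) were lower, 3 of 8 members against 2.09% of all genes in that direction and 3.88% in both. The methods' t-test gave 2 members and 3.66% of genes at this threshold. The exact two-sided permutation test over these mice gave p = 0.026, 0.0671 and 0.0238. The groups overlapped for all 8 genes. Without mice 1 and 25, 6 members had an unadjusted p under 0.05 (4.73% of genes), with Hspa1a at -1.25 and Hspa1b at -1.14, and 0 passed after adjustment. Leaving out Conv + PBS mouse 1 alone also gave 6, leaving out Conv + PBS mouse 4, Conv + PBS mouse 5 or Conv + LM mouse 14 gave 0, and leaving out Conv + PBS mouse 3, Conv + PBS mouse 6, Conv + LM mouse 13 or Conv + LM mouse 16 gave 1. Over all genes, 4.28% were under that threshold without Conv + PBS mouse 1, and 3.37% to 4.91% without any other 1 mouse. On slide 1 the difference was -1.77 for Hspa1a, -1.52 for Hspa1b and -0.73 for Dnajb1, with 3 of 8 members at an unadjusted p under 0.05 against 3.99% of genes. On slide 2 it was -0.53, -0.35 and -0.05, with 0 of 8 against 3.41%. Of the marker lists of other cell types, all 5 Kupffer cell markers (median -0.61) and all 4 measured neutrophil markers (median -0.76) had a lower mean in Conv + LM mice, all 3 red blood cell markers a higher one (median 0.23), and the 2 measured B and T cell markers were split, 0 of these at an unadjusted p under 0.05. The neutrophil difference rested on Conv + PBS mouse 1, without which 3 of the 4 markers were higher in Conv + LM mice (median 0.01), while the 5 Kupffer cell markers were still lower (median -0.25). Their part in the differences was not tested.

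In Conv + OM(HFD) vs. Conv + PBS mice all 8 members had a lower mean, where 50.7% of all genes did. The difference was -0.64 for Hspa1a (95% interval -1.61 to 0.33), -0.65 for Hspa1b (-1.49 to 0.19) and -0.50 for Hspb1 (-1.13 to 0.14). It was -0.34 for Hsph1, -0.34 for Dnajb1, -0.23 for Hsp90aa1, -0.10 for Hspa8 and -0.05 for Hsf1. Adjusted p was above 0.999 for all of them in limma, 0 of 20404 genes (0%) passed, and 0 members had an unadjusted p under 0.05, against 3.25% of genes. Leaving out Conv + OM(HFD) mouse 29 gave 3 members at an unadjusted p under 0.05 (3.2% of all genes) and leaving out Conv + PBS mouse 1 gave 2 (3.83%). Leaving out Conv + OM(HFD) mouse 25 moved Hspa1a to -0.21 and Hspa1b to -0.35. Without mice 1 and 25, the differences ran from -0.62 for Hspa1b to -0.03 for Hsf1, with Hspa1a at -0.42, and 0 members had an unadjusted p under 0.05, against 3.14% of genes. The direction did not hold on both slides for all members, since on slide 2 the difference was 0.15 for Hspa1a, 0.11 for Hspa1b and 0.05 for Dnajb1, against -1.19, -1.22 and -0.65 on slide 1. The other 5 were below 0 on both slides. On slide 1, 2 of 8 members had an unadjusted p under 0.05 in limma (3.82% of genes), and on slide 2 it was 0 (2.17%). Of 5 stellate cell markers 4 were at a lower mean than in Conv + PBS mice and 2 had an unadjusted p under 0.05, among them Lrat at -0.63 (SE 0.14, unadjusted p = 0.000352 and adjusted p above 0.999 in limma). Of 4 endothelial cell markers 3 were lower (median -0.20), with Clec4g at -0.48 (unadjusted p = 0.0159 in limma). Without Conv + OM(HFD) mouse 25 the lowest of the 4 was -0.31 and 0 had an unadjusted p under 0.05, while without Conv + PBS mouse 1 it was 2. All 5 Kupffer cell markers were lower (median -0.17), but 4 of the 5 were higher without Conv + PBS mouse 1 (median 0.18). All 4 measured neutrophil markers were higher (median 0.18), and all 4 lower without Conv + OM(HFD) mouse 25 (median -0.51). Their part in the differences was not tested. Both comparisons share the Conv + PBS mice.

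The inocula were also compared with each other. In Conv + OM(HFD) vs. Conv + LM mice the differences ran from -0.06 for Hsf1 to 0.40 for Hspa1a (SE 0.48, 95% interval -0.62 to 1.42). No member had an unadjusted p under 0.05, against 2.67% of all genes, and 0 genes passed after adjustment. The Hspa1a difference turned on single mice, at 0.08 without Conv + LM mouse 13 and 0.83 without Conv + OM(HFD) mouse 25. With mice 1 and 25 left out, the differences ran from -0.04 for Hsf1 to 0.83 for Hspa1a, the 1 member with an unadjusted p under 0.05 (0.037 in limma, adjusted p = 0.952), against 3.67% of genes. All 4 measured neutrophil markers (median 1.08) and all 5 Kupffer cell markers (median 0.37) had a higher mean in Conv + OM(HFD) mice, 0 of them at an unadjusted p under 0.05. Their medians were 0.15 and 0.19 without Conv + OM(HFD) mouse 25, with all 9 still higher. Of 5 stellate cell markers 4 were lower (median -0.28), with Lrat at -0.39 (unadjusted p = 0.0177 in limma). Their part in the differences was not tested. For Hspb1 the difference was 0.25 with an interval of -0.41 to 0.92, so the data do not show that the inocula act alike. The plot of group differences gives all intervals.

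**Figure D4:**
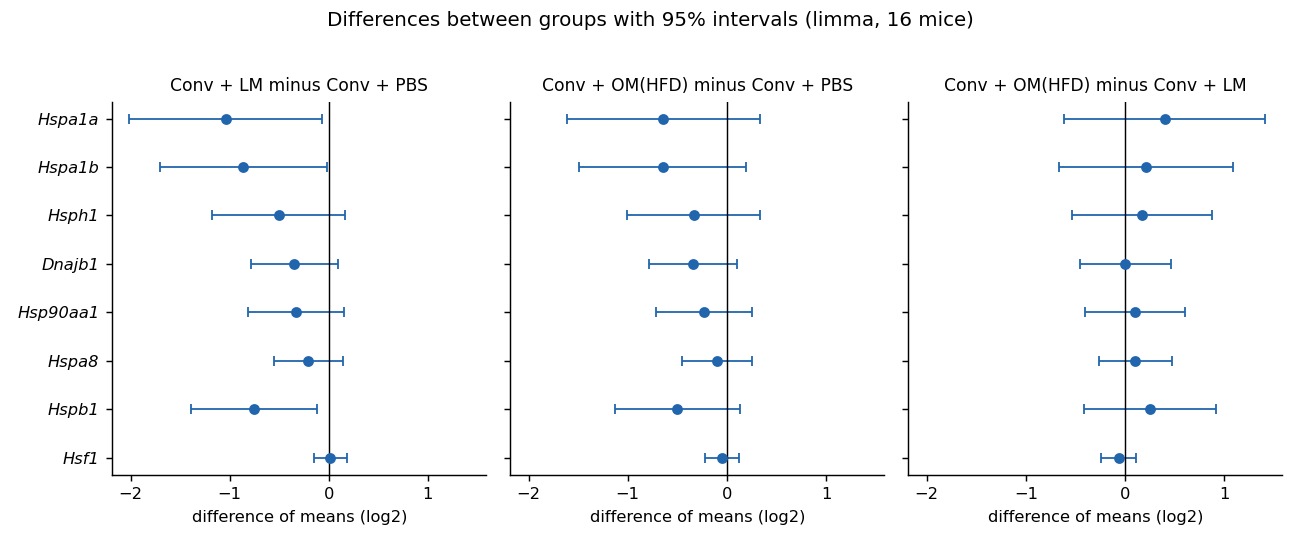
Difference in mean level between groups (horizontal axis, log2) for each heat shock gene (vertical axis) in the 3 comparisons, with points for differences and bars for 95% intervals from limma. Most points against Conv + PBS lie left of 0, and the intervals exclude 0 only for Hspa1a, Hspa1b and Hspb1 in Conv + LM vs. Conv + PBS mice, before adjustment.

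Arntl itself did not differ between groups beyond its spread, with a difference of 0.29 in Conv + OM(HFD) and 0.12 in Conv + LM vs. Conv + PBS mice. When the Arntl level of each mouse was added to the fit, a setting chosen after the data were seen, the errors of the members' differences from Conv + PBS mice were smaller. In Conv + LM vs. Conv + PBS mice, Hspa1a was at -1.11 (SE 0.32), Hspb1 at -0.79 (SE 0.23), Hspa1b at -0.92 (SE 0.29) and Hsph1 at -0.56 (SE 0.16). In Conv + OM(HFD) vs. Conv + PBS mice all 8 differences lay farther below 0 than without the covariate, with Hspa1a at -0.81 (SE 0.32), Hspa1b at -0.78 (SE 0.29), Hsph1 at -0.47 (SE 0.17) and Hspa8 at -0.16 (SE 0.11), against -0.64, -0.65, -0.34 and -0.10. In Conv + LM vs. Conv + PBS mice all members except Hsf1 had an unadjusted p under 0.05, 7 of 8 against 5.86% of all genes. In Conv + OM(HFD) vs. Conv + PBS mice it was 5 of 8 against 4.43% of genes, and between the inocula 0 of 8 against 3.09%. After adjustment 0 members and 0 genes passed in all 3 comparisons, with the smallest adjusted p of a member at 0.797.

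The other chaperones were compared with the members as lists. Of 51 other cytosolic chaperones and co-chaperones, 13 were higher and 2 lower with Arntl (Hspa14 and Hspb11), and 36 did not pass. Those that rose include Dnaja1, an HSP40, with a slope of 0.22, Bag3, which couples HSP70 to autophagy, with 0.32, and the HSP90 co-chaperones Chordc1 with 0.25 and Ahsa1 with 0.13. Fkbp5, an HSP90 co-chaperone that is also a glucocorticoid target, had 0.51 (adjusted p = 0.000801). The median slope of this list was 0.07 against 0.31 for the members. Of 14 chaperones of the endoplasmic reticulum 1 rose (Dnajc3, 0.17), and of 8 mitochondrial chaperones and of the 4 other genes of the HSF family list 0 did. With Hsph1 as the index, 13 of the 51 rose and 0 fell, and those with the smallest p were Chordc1 (slope 0.58), Dnaja1 (0.44) and Bag3 (0.67). The lists are in the plot of slopes by list. Between groups, 0 genes of these lists passed after adjustment. In Conv + OM(HFD) vs. Conv + PBS mice, 38 of the 51 other cytosolic chaperones had a lower mean (median -0.07), and those with an unadjusted p under 0.05 in limma were the HSP110 family gene Hspa4l at -0.32 and the HSP90 co-chaperone gene Unc45a at 0.26, besides the ER stress gene Manf at -0.36. In Conv + LM vs. Conv + PBS mice 34 of the 51 did (median -0.06), and those were Hspa4l at -0.32 and Stip1, which links HSP70 to HSP90, at -0.28, besides the immediate early gene Fos at -0.99. Between the inocula, 24 of the 51 were higher in Conv + OM(HFD) mice and 0 of them had such a p, while Per2 was at -0.35 (unadjusted p = 0.0209).

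**Figure D5:**
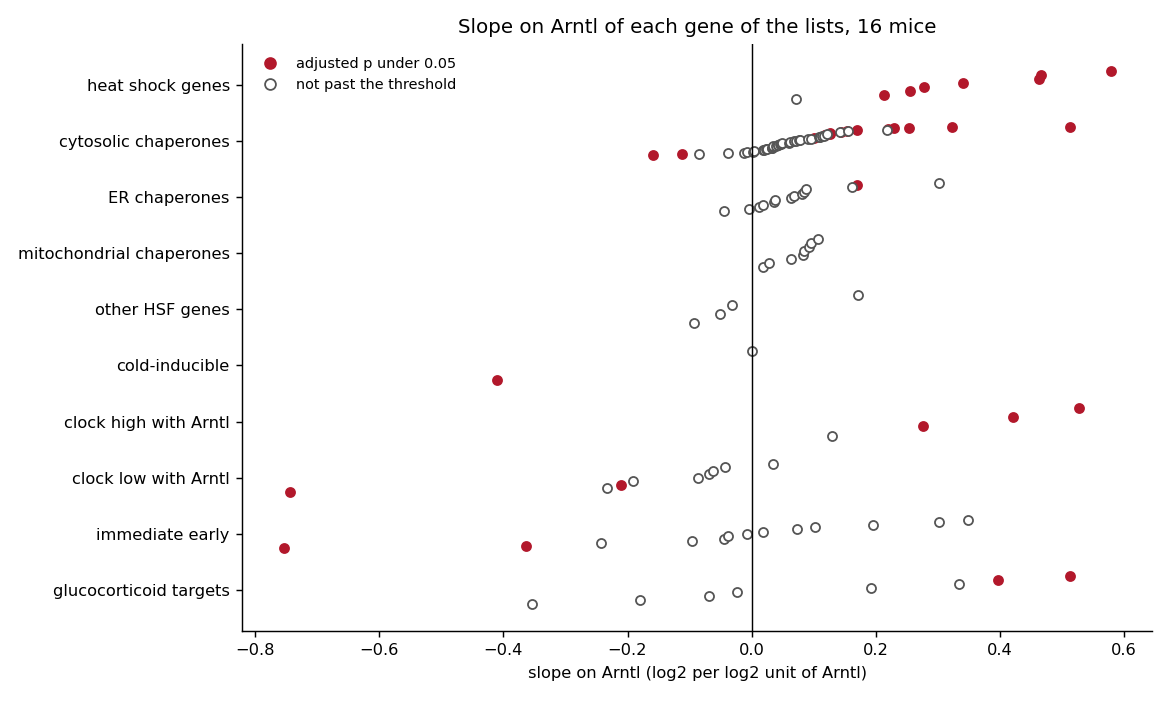
Slope on Arntl (horizontal axis, log2 per log2 unit of Arntl) of each measured gene in the lists on the vertical axis, with filled points for genes past an adjusted p of 0.05 and open points for the others. The heat shock genes lie from 0.07 to 0.58, and the other cytosolic chaperones have a median of 0.07.

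Of the clock genes known to peak with Arntl, 3 of 4 rose with it, among them Nfil3 (slope 0.53) and Cry1 (0.42). Of the 9 measured that peak opposite, 2 fell, among them Dbp (-0.74, adjusted p = 8.54e-05), whose slope on Hsph1 was -1.29. Cirbp fell with Arntl (-0.41, adjusted p = 0.00881) and with Hsph1 (-0.86, adjusted p = 0.00287), and Rbm3 had a slope on Arntl of 0.00 (adjusted p = 0.995). Nr4a1, an immediate early gene, had slopes of -0.75 on Arntl and -1.36 on Hsph1, and 2 of 13 immediate early genes fell with Arntl. Of 8 glucocorticoid targets 2 rose with Arntl, Fkbp5 and Zbtb16. In the marker lists of other cell types, 0 genes passed on either slope except 1 cholangiocyte marker, Sox9. The slope on Arntl was below 0 for all 4 measured neutrophil markers (median -0.70, 1 at an unadjusted p under 0.05) and for all 5 Kupffer cell markers (median -0.20, 1), and above 0 for all 5 hepatocyte markers (median 0.07, 2) and all 5 stellate cell markers (median 0.15, 2). The slope on Hsph1 was below 0 for the same 4 neutrophil markers (median -1.59, 3 at an unadjusted p under 0.05) and 5 Kupffer cell markers (median -0.38, 1), and above 0 for the 5 hepatocyte markers (median 0.12, 2) and the 5 stellate cell markers (median 0.30, 3). Without mice 1 and 25 the medians on Arntl were 0.03 for neutrophil (2 of 4 below 0), 0.01 for Kupffer cell (2 of 5 below 0) and 0.10 for stellate cell markers. On Hsph1 they were then 0.07, 0.23 and 0.12, so the negative slopes of the neutrophil and Kupffer cell lists rested on these mice. Among technical measures, the members had r from -0.499 to -0.092 with the brightness of the array and were 0.00 to 0.67 higher on slide 2. Arntl had r = -0.474 with brightness and was 0.72 higher on slide 2 (SE 0.52). The part of these in the slopes was not tested, and values within slides stand beside the slopes.

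The genes most like the members were found by correlating the 20320 other genes with a value on all 16 arrays with the mean of the 8 standardised members across the mice, on deviations from group means. The 76 genes with an outlier spot left out on at least 1 array were not ranked. The highest were Arid5b (r = 0.942), Gm826 (0.942), D130062J21Rik (0.934), Dnaja1 (0.933), the transcript ENSMUST00000162103 (0.933), Ahsa1 (0.931), Ube2f (0.927), Mkl2 (0.922), Fam53c (0.922) and Gm20560 (0.922). Dnaja1 and Ahsa1 are the chaperone genes among these 10. The lowest were Marveld2 (-0.932), Hmgb2 (-0.925), Dynlt1c (-0.925), Fam26f (-0.910) and Dcp1b (-0.910). Arntl ranked 103 from the highest with r = 0.864, Dbp 38 from the lowest with r = -0.875 and Cirbp 71 from the lowest with r = -0.854. These correlations share the same 16 arrays and are given as a description.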

How the data were processed

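Liver RNA of 16 mice was measured on 1-colour Agilent arrays, 1 per mouse, from 200 ng of total RNA labelled with Cy3. Groups follow the labels, and the vehicle of the control mice follows the methods of the study. The authors scanned the arrays with Agilent Feature Extraction 10.10.1.1 (submitters' processing notes), and the deposited intensity values are linear and background-corrected, not normalized between arrays. The authors also deposited log2 values, which matched quantile-normalized log2 median signals of the spots (the largest gap was 0.13) and served as an alternative. Gene names and mm9 positions are those of the array design.

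Of 62976 spots an array, the 59305 that are no controls were used, without outlier spots. Replicate spots were averaged, and log2 values were set relative to the array's 75th percentile. A probe needed at least 5 of 16 arrays well above background (30664 probes, 20404 genes), and the probe with the highest mean stood for a gene. Groups were compared, and slopes on Arntl or Hsph1 fitted with the groups as terms, by lmFit and eBayes of limma 3.58.1 (R 4.3.3, the data.table package, version 1.17.8), with Benjamini-Hochberg adjustment over all genes at 0.05. Correlations used deviations from group means and 100000 permutations within groups (Python 3.11.15, numpy 2.4.6, scipy 1.17.1, pandas 2.3.3, matplotlib 3.10.9). Exact permutation tests between groups cannot go below p = 0.00216 for 5 against 6 mice or 0.00794 for 5 against 5. The number of arrays limits the precision. Fits were tested on simulated data.

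The alternatives were normexp (offset 50), quantile normalization, the authors' values, no filter or a stricter one, the mean of all probes, the slide as a block or alone, array weights, only the mice of both groups, the methods' t-test, other clock or index genes and leaving out each mouse in turn. Arntl as a covariate in the group comparisons and pair correlations, slopes per group, and leaving out the 2 farthest mice or mice 1 and 25 were chosen after seeing the data. The members and gene lists were chosen with earlier results of these data known. The text names all members, the clock genes Arntl, Dbp, Per2 and Nr1d1, Cirbp and Rbm3, up to 3 genes a direction of the wider lists in each fit with the smallest unadjusted p under 0.05, and the 10 genes most and 5 least like the members. Ahsa1 (in its list), Hspa14, Hspb11, Dnajc3, Zbtb16, Sox9, Lrat and Clec4g were named after their values were seen. RefSeq promoters and motifs come from GRCm38.p6, with windows for 27025 gene symbols.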

Additional observations from a re-analysis of the deposited data

Results flagged for a closer look

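The lowest or highest mouse of a group was tested with Dixon's ratio in 48 groups of values (members, clock and cold-inducible genes, and summed markers), and 6 stood out, while chance gives about 1 in 20. Of the members, Hspa1b was 1.22 in Conv + PBS mouse 1, with the nearest mouse of its group at 2.38, and Dnajb1 was 4.27 in the same mouse, with the nearest at 4.87. In that mouse the summed neutrophil level was 4.94, with the nearest mouse at 0.27, and the summed Kupffer cell level was 7.56, with the nearest at 5.57. In Conv + OM(HFD) mouse 25 the summed neutrophil level was 4.85, with the nearest at 0.64. Rbm3 was 3.67 in Conv + PBS mouse 2, with the nearest at 3.38.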

How the results depend on the processing

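In the 3 group comparisons 0 members passed the adjusted threshold under all 14 other settings and without any 1 mouse, as 0% of all genes did. Only slopes of members could therefore lose a call, and 64 of 224 alternative values on Arntl and 36 of 203 on Hsph1 did. Over all 1147 alternative values of single members, 1028 kept their direction and side of the threshold, 100 no longer passed it, 1 newly passed and 18 changed sign. The last were 0.15 (Hspa1a), 0.11 (Hspa1b) and 0.0524 (Dnajb1) within slide 2 for Conv + OM(HFD) vs. Conv + PBS, -0.0141 for Hsf1 within slide 2 for Conv + LM vs. Conv + PBS, and for Dnajb1 between the inocula -0.0662 with normexp, -0.0602 with the authors' values and -0.0394 with Arntl as a covariate. The others came from leaving out 1 mouse, with ranges of -0.0378 to 0.0496 for Hsf1 in Conv + LM vs. Conv + PBS, and between the inocula of -0.0224 to 0.52 for Hspa1b, -0.0153 to 0.33 for Hsph1, -0.13 to 0.15 for Dnajb1 and -0.0221 to 0.24 for Hsp90aa1.

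On Arntl, 7 members passed, and 4 with the authors' values (6.17% of genes), 2 without a filter (1.95%, more genes tested), 3 with the slide as a block, 0 on slide 1 and 0 on slide 2 (fewer mice), 0 with Per2, 0 with Nr1d1, 4 with a score of clock genes (6.05%), 1 without mice 1 and 25, and 2 to 7 without 1 mouse. On Hsph1, 6 passed, and 0 on slide 1, 0 on slide 2, 0 with Arntl as a covariate, 3 with Hspa1b as index (0.622% of genes, against 5.99% with Hsph1), 3 without mice 1 and 25, 2 without the 2 farthest mice (2.31%), and 5 to 6 without 1 mouse. Of 28 pairs, 27 had a permutation p under 0.05, against 10 with Arntl removed, 16 without mice 1 and 25 and 19 to 27 without 1 mouse. Of the members, 8 correlated with Arntl in each set without 1 mouse and 6 without mice 1 and 25. Over all genes, 1682 passed on Arntl, against 722 without a filter, 935 without the 2 farthest mice, 883 without mouse 25 and 654 without mice 1 and 25, and 1222 on Hsph1, against 444, 472, 665 and 694, 807 with the mean of all probes and 2237 with array weights. Where no value shows the cause, the cause was not tested. No paired analysis was possible because no replicate number is shared between groups. Dim probes do not limit the members, which were well above background on all arrays.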
